A study of Mus musculus with 42 samples.

Results

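Chemokines of the CC family are small secreted proteins that draw leukocytes through G protein-coupled receptors. In the gut, epithelial cells make Ccl20, which attracts Ccr6+ cells, Ccl25, which attracts Ccr9+ lymphocytes, and Ccl28, which attracts Ccr10+ plasma cells. Ccl2, Ccl7, Ccl8 and Ccl11 are attractants of monocytes and eosinophils and are typically made by fibroblasts and myeloid cells. Ccl9 is a ligand of Ccr1, and Ccr4 is the receptor of Ccl17 and Ccl22. The 9 genes Ccl20, Ccl25, Ccl28, Ccl2, Ccl7, Ccl8, Ccl9, Ccl11 and Ccr4 were taken by name from the rows of 12 tables, in which 19232 gene names have at least 1 row. All 9 had a row somewhere, and only Ccl25, Ccl28 and Ccl9 had one in all 12 tables.

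RNA sequencing covered 42 mouse samples, which are 40 distinct libraries because 2 control organoid libraries carry both times. Muc2-mCherry+ goblet cells were sorted from GWTM2 mice (Gli1-CreERT2; Muc2-mCherry), from GS4M2 mice that also carried Smad4 fl/fl, and from GA3M2 mice that also carried Alk3 fl/fl, while Gli1-tdTomato+ stromal cells came from GWTT (Gli1-CreERT2; Rosa26-tdTomato), GS4T and GA3T mice with the same alleles. All of these mice, controls included, carried Gli1-CreERT2 and received tamoxifen, and cells of the proximal and the distal colon were collected at day 30 with 2 libraries per group. The mice were 2 to 4 months old and of both sexes, the floxed genes are deleted in Gli1+ cells and not in goblet cells, and no source used here says whether a library is 1 mouse or a pool. Colonic organoids of wild-type distal colon were left untreated or given 10 nM of IL-1α and IL-1β (IL-1 below) or of IL-17A for 12 or 72 h, with 3 samples per group. Control 12 h 2 and control 72 h 1 had equal reads in all but 2 of 14473 genes, as did control 12 h 4 and control 72 h 4 in all but 2 of 14484, against at most 2.66% of genes equal in any other of the 861 pairs of samples. Each of these pairs is 1 library given under both times, the labels do not say which time is right, and the 6 control organoid samples are 4 distinct libraries. Replicates were not said to be separate cultures, so their spread may be technical in part.

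Each table holds normalized counts, in which the reads of a gene are divided by 1 size factor per library, and knockout or cytokine libraries were compared with the controls of the same table. Differences are log2 fold changes from limma on log2(normalized count + 1), given with the standard error (SE) and, in brackets, the 95% interval. A gene was called when its p, adjusted over all genes tested in that comparison, was under 0.05 and its log2 fold change was at least 1 in size, and genes with a mean below 10 were not tested and are described as low. The control libraries of a cell type and segment, or of a time, are the same in both of its tables, so that the 2 knockouts and the 2 cytokines share controls, and the 12 h and 72 h comparisons share 2 of their 3 controls.

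The libraries held 14222902 to 23686940 reads on named genes. Smad4 was 680 to 1171 normalized counts in the 4 GS4T libraries against 1604 to 1781 in GWTT, and Bmpr1a (Alk3) was 1842 to 2233 in GA3T against 2960 to 3485. The labels name the tissue of all sorted cells intestinal epithelium. In the Gli1+ libraries 6 fibroblast markers (Pdgfra, Col1a1, Col1a2, Col3a1, Dcn, Lum) summed to 40330 to 57230 RPM (reads scaled to library depth), and 6 epithelial markers to 12.9 to 1253. In the Muc2+ libraries the fibroblast markers summed to 0 to 22.4 RPM and the epithelial ones to 6963 to 11310. In 3 pairs of organoid libraries of 1 group (IL-1 12 h 3 and 4, IL-17A 12 h 3 and 4, control 72 h 2 and 4) the counts differed by a chi-square of 3.03 to 3.32 per degree of freedom, against 18.1 to 212 in the other 26 distinct pairs of libraries of 1 group. These near-identical libraries were kept as separate replicates, and organoid calls were also computed with each such pair averaged.

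The upstream sequences of the 3 members that passed the test in organoids are shown because these genes moved in different directions in the same cells. RefSeq promoters of GRCm38.p6 matched 6 of the 9 members, Ccl20, Ccl25, Ccl28, Ccl8, Ccl9 and Ccr4. Each run gives, 5′ to 3′ on the gene's strand, the 250 bases before the start of Ccl20 (chr1:83116516-83116765, plus strand), Ccl28 (chr13:119623569-119623818, plus strand) and Ccl9 (chr11:83578637-83578886, minus strand). Capitals mark matches of the NF-κB-type motif (GGG, any 3 bases, TTCC), of TATAAA or of the STAT-type motif (TTC, any 4 bases, GAA), on either strand.
Ccl20: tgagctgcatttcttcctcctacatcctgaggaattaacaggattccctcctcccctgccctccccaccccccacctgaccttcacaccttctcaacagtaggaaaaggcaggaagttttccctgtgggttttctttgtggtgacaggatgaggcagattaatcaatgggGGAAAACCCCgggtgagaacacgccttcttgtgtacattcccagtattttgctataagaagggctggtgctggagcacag
Ccl28: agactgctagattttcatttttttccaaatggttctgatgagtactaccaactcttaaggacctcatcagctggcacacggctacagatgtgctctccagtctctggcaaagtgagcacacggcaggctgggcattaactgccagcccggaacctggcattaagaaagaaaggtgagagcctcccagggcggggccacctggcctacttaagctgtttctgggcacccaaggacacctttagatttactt
Ccl9: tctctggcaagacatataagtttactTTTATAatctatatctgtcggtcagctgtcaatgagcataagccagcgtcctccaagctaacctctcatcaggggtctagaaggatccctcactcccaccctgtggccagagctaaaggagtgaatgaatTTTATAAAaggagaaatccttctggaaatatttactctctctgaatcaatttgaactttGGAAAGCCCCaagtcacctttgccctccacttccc
Ccl20 held 1 match of the NF-κB-type motif, on the opposite strand at 80 to 71 bases before the start. Ccl9 held 1 at 35 to 26 bases and 3 matches of TATAAA, 2 of which overlap on opposite strands at 94 to 87 bases. Ccl28 held none of the 3 motifs. Of 32851 RefSeq promoters cut to the same 250 bases, 4.65% held the NF-κB-type motif, 5.85% the STAT-type motif and 12.4% TATAAA. A match describes letters and is no evidence of binding.

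To see which cells carried each member, levels were first compared in control libraries as RPKM, the reads of a gene scaled to library depth and to kilobases of annotated exon. In the 4 GWTT stromal libraries Ccl11, the eosinophil attractant, was the most abundant member, with 299.7 to 591 and a median of 468. Ccl7 followed at 37.5 to 60.0, and its range met that of Ccl2 at 24.4 to 37.5, which in turn overlapped that of Ccl8 at 13.3 to 49.7. Ccl9 was lower at 1.33 to 5.27, and Ccl25 (0.473 to 0.681), Ccr4 (0.116 to 0.831) and Ccl28 (0.0631 to 0.625) overlapped one another at the bottom. Ccl20 had no row in any stromal table.

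Goblet cells showed another order. Ccl9 at 20.4 to 43.9 and Ccl28 at 9.80 to 30.8 led and overlapped in the 4 GWTM2 libraries, and Ccl25 lay at 0.571 to 1.56, with no overlap with Ccl28. Ccl20 was 1.16 and 0.0440 in the 2 distal libraries, the only ones with a row, and Ccr4 was 0.228 and 0.0204 in the 2 proximal ones. Ccl7, Ccl8 and Ccl11 had no row in goblet or organoid tables, and Ccl2 had a row in the proximal GA3M2 table alone, where both controls were at 0. In the 4 distinct control organoid libraries Ccl28 led at 16.2 to 29.8, followed without overlap by Ccl9 at 1.71 to 4.84, and Ccl20 (0.693 to 3.02) and Ccl25 (1.11 to 1.53) overlapped. A missing row is not read as 0: among genes that only 1 table of a pair with the same controls lists, 78.4% to 100% had fewer than 10 reads on average in the controls. The highest such mean was 3912 reads, so a missing row does not show that a gene was low.

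**Figure D1:**
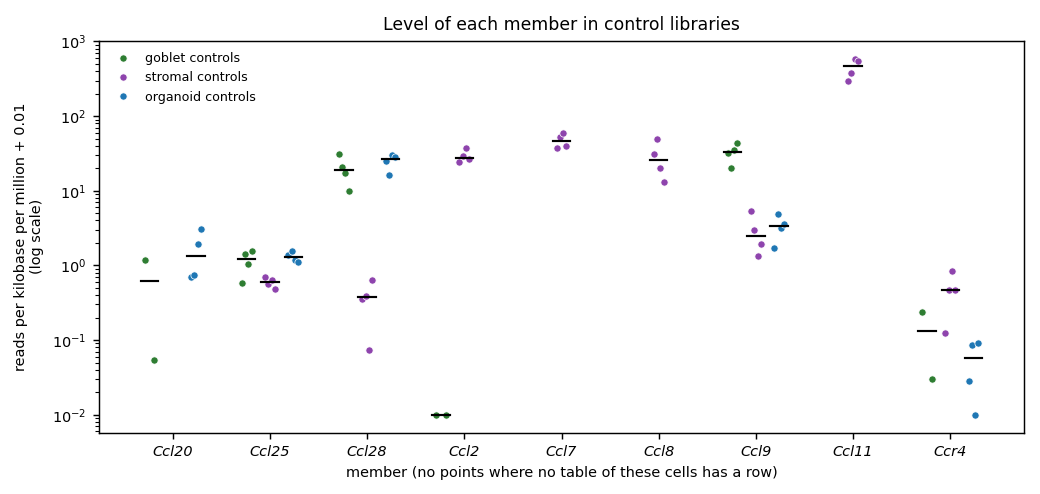
Level of each member in every control library, in RPKM plus 0.01 on a log axis. Green points are GWTM2 goblet cells, purple points GWTT stromal cells and blue points the 4 distinct organoid libraries, and the black bar is the median. Ccl2, Ccl7, Ccl8 and Ccl11 appear in stromal cells above 13 while Ccl28 and Ccl9 are higher in goblet cells than in stromal cells.

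The test between control goblet and stromal cells, on reads rescaled over both and with the segment as a covariate, covered Ccl25, Ccl28 and Ccl9, the members with rows in all 4 tables. Of these 3, 2 were called, in a comparison that called 44.2% of 12973 genes. Ccl28 was higher in goblet cells by 5.79 (SE 0.60, [4.39, 7.19], adjusted p = 6.29e-05) and Ccl9 by 3.43 (SE 0.41, [2.47, 4.39], adjusted p = 0.000143). Ccl25, with 133 ± 52.1 against 79.1 ± 12.1 rescaled counts (SD, n = 4 each), differed by 0.66 ([-0.12, 1.44], adjusted p = 0.111), and its groups overlapped. In bulk libraries fewer cells of a type and less RNA per cell cannot be told apart.

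Between control segments no member was called by limma in goblet cells, where 0.0382% of genes were called, or in stromal cells, where 2.32% were. By p without adjustment, and past the same fold, the counts were 0 and 2, edgeR called none, and DESeq2 called 0 in goblet cells and, in stromal cells, Ccl8 and Ccl9. Over all genes that unadjusted rule passed 684 of 13101 in goblet and 959 of 15097 in stromal cells. For edgeR and DESeq2 the share of all genes called is not given beside a count of members, here or below. Those counts are therefore not read as a result about the members. Ccl11 was 10306 on average in proximal and 6044 in distal GWTT cells after rescaling, a log2 difference of 0.78 (SE 0.14, adjusted p = 0.0464) that stayed under the fold threshold. Ccl8 and Ccl9 ran the other way, with proximal minus distal differences of -1.23 ([-2.02, -0.44], adjusted p = 0.12) and -1.29 ([-2.18, -0.40], adjusted p = 0.139), each without overlap of the 2 libraries per segment. In GWTM2 goblet cells Ccl28 averaged 1126 in proximal and 2186 in distal libraries, a difference of -0.99 (SE 0.32, adjusted p = 0.328).

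To examine the response of the epithelium alone, organoids were compared with and without cytokine. Ccl20, the Ccr6 ligand, had normalized counts of 15.9, 16.8 and 42.4 in the 12 h controls and of 745, 717 and 730 after IL-1 for 12 h. All IL-1 libraries lay above all controls, by a log2 fold change of 4.95 (SE 0.37, [4.08, 5.82], adjusted p = 0.0209). Ccl20 was the 1 member called of the 4 tested, where 0.0542% of 12913 genes (7) were called. The call was lost in each of 5 of the 6 fits without 1 library, all but that without control 4, and with the near-identical IL-1 libraries averaged (4.96, adjusted p = 0.253), so that the fold was stable at 4.72 to 5.40 while the adjusted p was not.

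After 72 h of IL-1, Ccl20 was 114, 711.5 and 321 against 16.0, 64.8 and 40.7 in controls, again without overlap. The log2 fold change was 3.05 (SE 0.72, [1.38, 4.72], adjusted p = 0.0142), and it missed the threshold without IL-1 library 3. With IL-17A the 12 h values were 221, 512 and 502 against 16.7, 17.7 and 44.4, a fold change of 3.97 (SE 0.48, [2.82, 5.11]) that did not pass the adjustment (adjusted p = 0.0775). After 72 h of IL-17A Ccl20 was 60.5, 51.8 and 204 against 15.9, 64.4 and 40.6, with overlap (1.284, [-0.35, 2.92], adjusted p = 0.21). The 72 h minus 12 h difference did not pass the test for IL-1 (-1.90, [-3.89, 0.08], adjusted p = 0.141) or for IL-17A (-2.68, [-4.70, -0.67], adjusted p = 0.109). These tests between times count the 2 shared control libraries at both times, so their errors and p-values are not those of independent libraries. With those libraries kept at 12 h only or at 72 h only, the difference was -2.77 and -2.38 for IL-1, and -3.55 and -3.16 for IL-17A. Each of these fits leaves 1 control at the other time. With the 4 distinct controls as 1 group, the fit sets 72 h against 12 h cytokine libraries with no control for time in culture. It gave -1.21 for IL-1 (adjusted p = 0.158) and -1.98 for IL-17A (adjusted p = 0.0543), with no call.

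Ccl28, the Ccr10 ligand, was the most abundant member in organoids and lay above its controls in every cytokine library. At 12 h it was 1956, 1249 and 2228 in controls and 2686, 3413 and 3198 with IL-1 (0.81, [0.28, 1.34], adjusted p = 0.886). With IL-17A it was 3943, 4782 and 5203 against 2053, 1309 and 2333 (1.32, [0.78, 1.87], adjusted p = 0.257). At 72 h it was 4634, 3187 and 2793 with IL-1 against 1184, 2096 and 2138 in controls, a change of 0.99 that passed the adjusted p (0.0266) and lay under the fold threshold.

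With IL-17A for 72 h Ccl28 reached 5123, 3443 and 4348 against 1182, 2084 and 2133, and it was the 1 member called of 5 tested (1.29, SE 0.27, [0.64, 1.93], adjusted p = 0.043), where 7.94% of genes were called. The IL-1 change at 72 h was called in 4 of the 6 fits without 1 library and with the near-identical controls averaged (1.13, adjusted p = 0.0437). The IL-17A call at 72 h was lost with the near-identical controls averaged (adjusted p = 0.164). It was also lost in 5 of the 6 fits without 1 library, all but that without IL-17A library 2. None of the 3 IL-17A libraries at 72 h but 2 of the 3 controls had Xist above 1000 normalized counts. The sex of the source was therefore not balanced between these groups. That holds for every member in this comparison. At 12 h 2 of the 3 libraries of each cytokine and 1 of the 3 controls had Xist that high, as did 1 of 3 with IL-1 at 72 h. The part of sex in these results was not tested. The change of Ccl28 was 0.18 larger at 72 h than at 12 h for IL-1 ([-0.68, 1.04]) and 0.03 smaller for IL-17A ([-0.88, 0.81]), and from -0.29 to 0.33 with each shared control library counted once.

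Ccl9, the Ccr1 ligand, overlapped with its controls at 12 h and lay below them at 72 h. At 12 h IL-1 libraries had 76.8, 141 and 156 against 84.3, 235 and 149 in controls (-0.27, [-1.29, 0.75], adjusted p = 0.901), and IL-17A libraries had 60.4, 152 and 156 against 88.5, 246 and 156 (-0.41, [-1.59, 0.76], adjusted p = 0.929). At 72 h it was 12.0, 38.9 and 16.5 with IL-1 against 223, 164 and 143, below all controls, and fell by 3.07 on the log2 scale (SE 0.46, [-4.13, -2.002], adjusted p = 0.00381). With Ccl20 that makes 2 of the 4 members tested called in IL-1 at 72 h, against 23% of 13023 genes.

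Ccl9 was 7.84, 81.9 and 26.5 after 72 h of IL-17A against 222, 163 and 143 (-2.68, SE 0.76, [-4.48, -0.88]), again without overlap, but the adjusted p was 0.0608. The difference between times was called for IL-1, at -2.80 (SE 0.66, [-4.25, -1.34], adjusted p = 0.0142), the 1 call among 4 members where 17.4% of genes were called, and it was lost with near-identical libraries averaged (-2.73, adjusted p = 0.0868). This fit too counts the 2 shared control libraries at both times. With the 4 distinct controls as 1 group the fit gave -2.44 (adjusted p = 0.00336). In that fit the controls cancel, so it sets 72 h against 12 h IL-1 libraries with no control for time in culture. It is therefore no test of the difference between the 2 fold changes. With the shared controls kept at 12 h only the difference was -2.71, which leaves 1 control at 72 h. Kept at 72 h only, it was -3.56, which leaves 1 at 12 h. A lone control is assumed to vary like the other groups. For IL-17A the difference was -2.27 ([-4.45, -0.08], adjusted p = 0.164), and no member was called where 0.0384% of genes were. At an unadjusted p Ccl20 and Ccl9 made 2 calls in that IL-17A comparison, with 0 by edgeR and 1, Ccl20, by DESeq2. The unadjusted rule passed 2063 of 13021 genes there.

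Ccl25, the Ccr9 ligand, was 124 to 220.5 normalized counts in all organoid libraries, and its log2 fold changes ran from -0.20 to 0.47 with adjusted p from 0.179 to 0.932. Ccr4 was near the floor. Controls had 0 to 3.92, IL-1 libraries 16.7, 8.501 and 17.7 at 12 h, and IL-17A libraries 25.0, 4.94 and 8.72, all below the filter. At 72 h with IL-17A it was 14.6, 160 and 5.04 against 3.54, 3.79 and 0, a fold change of 3.15 ([0.11, 6.19], adjusted p = 0.121) that 1 library dominated.

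**Figure D2:**
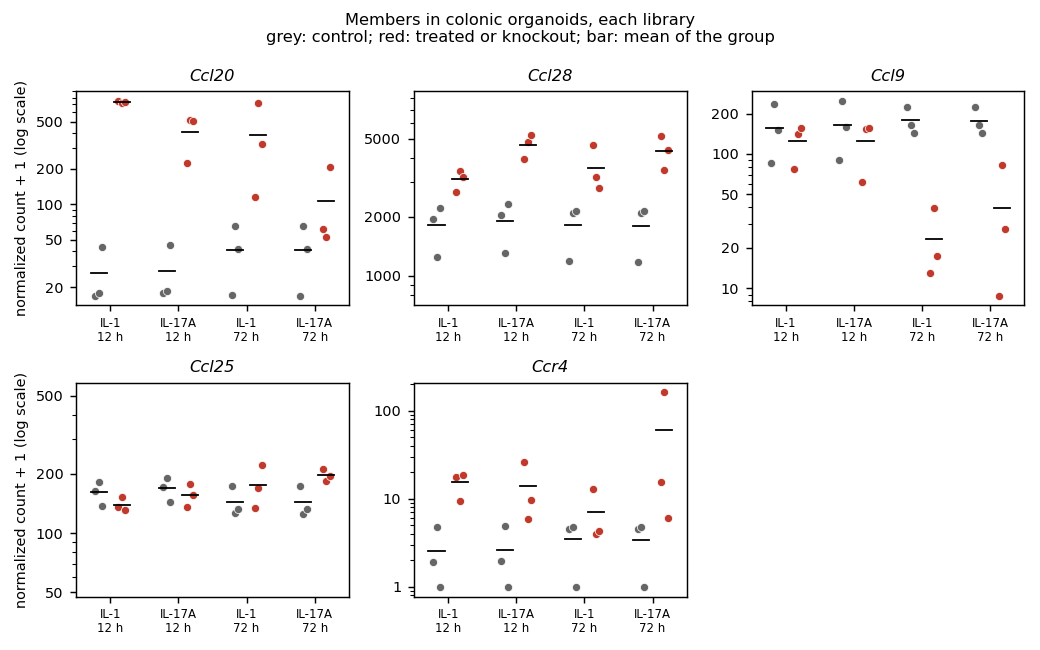
Normalized count plus 1 of 5 members in each organoid library on a log axis, controls in grey and cytokine libraries in red, with a bar at the group mean, and 2 of the 3 control libraries are the same at both times. Ccl20 lies higher with IL-1 at both times and with IL-17A at 12 h, Ccl28 lies higher in all 4 comparisons, Ccl9 lies below its controls at 72 h, at 7.84 to 81.9 against 143 to 223, and Ccl25 overlaps in 3 of the 4 comparisons.

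IL-17A for 12 h called no member by limma, where 0.0385% of 12977 genes were called, while 2 members passed an unadjusted p with the fold and DESeq2 called Ccl20 and Ccl28, with none by edgeR. Of the 12977 genes 140 passed that unadjusted rule. The 2 cytokines were then set against each other on rescaled reads. At 12 h Ccl20 averaged 751 with IL-1 and 403 with IL-17A, without overlap (0.99, [0.22, 1.77]), and Ccl28 averaged 3187 and 4549 (-0.51, [-0.85, -0.17]), also without overlap. At 72 h the differences were 1.78 ([-0.06, 3.61]) for Ccl20 and -0.29 ([-0.86, 0.27]) for Ccl28. Adjusted p-values were all close to 1 and no member, nor any gene (0% at both times), was called by limma. No member passed an unadjusted p with the fold or was called by edgeR or DESeq2.

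In Gli1+ stromal cells, the cells targeted for deletion of Smad4 or Alk3, 8 members were tested in every table. Distal GS4T cells had 4 called (Ccl2, Ccl9 and Ccl28 higher, Ccl8 lower), where 14% of 15262 genes were called, and proximal GS4T cells had 2 (Ccl2 and Ccl9 higher), where 9.61% of 15319 were. The median log2 fold change of the 8 was 0.45 and 0.64 in those comparisons, beside 0.0049 and 0.022 over all genes tested.

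Ccl2, the main monocyte attractant, was 456 and 538 in distal GWTT and 2277 and 1543 in distal GS4T libraries (1.92, SE 0.21, [1.41, 2.43], adjusted p = 0.00376). In the proximal colon it was 722 and 503 against 1360 and 2107 (1.49, SE 0.27, [0.79, 2.18], adjusted p = 0.0277), and this call was lost without either GS4T library. Both GS4T libraries exceeded both controls in each segment, and the segments did not differ by the test (-0.43, [-1.35, 0.50]).

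Ccl7, which lies beside Ccl2 on chromosome 11, gave 1184 and 816 against 493 and 682 in distal cells (0.76, [0.18, 1.34], adjusted p = 0.0683) and 515 and 1040 against 813 and 523 in proximal cells (0.17, [-0.82, 1.15], adjusted p = 0.794). Ccl2, Ccl7, Ccl11 and Ccl8 lie in that order on the plus strand of chromosome 11 (GRCm38, GENCODE M21), from 82035571 to 82116799, with Ccl12 between Ccl11 and Ccl8. The 4 did not share a direction: distal GS4T cells had higher Ccl2, lower Ccl8 and overlapping Ccl11.

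Ccl8 fell in distal GS4T cells, to 151 and 115 against 259 and 412 (-1.31, SE 0.29, [-2.03, -0.58], adjusted p = 0.0285). Each of the 4 fits without 1 library lost this call. In proximal GS4T cells both libraries were above both controls, at 490 and 187 against 175 and 113 (1.105, [-0.18, 2.39], adjusted p = 0.194). The difference between segments was 2.41 (SE 0.66, [0.85, 3.97]) and did not pass the adjustment (adjusted p = 0.24). Across GS4T segments no member was called, where 0.189% of genes were, with 1 member at an unadjusted p, 0 by edgeR and 1 by DESeq2, in both cases Ccl8. The unadjusted rule passed 798 of 15312 genes there.

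Ccl11, the most abundant member, was 10800 and 9917 in proximal GWTT and 4737 and 7439 in GS4T libraries (-0.80, [-1.39, -0.21], adjusted p = 0.0767). In distal cells it was 5318 and 6731 against 6001 and 4751 (-0.16, [-0.59, 0.26], adjusted p = 0.529).

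Ccl9 was 263 and 149 in distal GWTT and 948 and 531 in distal GS4T cells (1.84, SE 0.37, [0.92, 2.75], adjusted p = 0.021), and 68.2 and 96.3 against 346 and 457 in proximal ones (2.28, SE 0.27, [1.58, 2.98], adjusted p = 0.0115). The distal call was lost without GWTT library 2 or GS4T library 1, and the proximal one without either GS4T library. Ccl28 was 27.4 and 30.0 against 98.3 and 154 in distal cells (2.06, SE 0.38, [1.13, 3.00], adjusted p = 0.0162), a call lost without either GWTT library or GS4T library 2. In the proximal colon it was 5.17 and 50.2 against 79.3 and 163 (2.69, [-0.03, 5.41], adjusted p = 0.15).

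Markers of other cells moved with these groups. The 9 macrophage markers summed to 18720 to 33850 normalized counts in distal GS4T against 10070 to 11800 in GWTT, and to 15270 to 26120 against 3179 to 5067 in the proximal colon, with 4 of 9 and 6 of 9 called higher. Over all genes 7.88% (distal) and 5.25% (proximal) were called higher. The 4 neutrophil markers summed to 2152 to 2473 against 44.5 to 80.2, with Cxcr2 at 0 in both distal controls, and to 565 to 853 against 31.0 to 55.3. The 6 epithelial markers, beside which Ccl28 and Ccl9 of these sorted cells have to be read, summed to 9100 to 18320 against 802 to 2422 in distal and 17070 to 21420 against 218 to 7288 in proximal cells, and all 6 were called in the distal colon and 0 in the proximal. B and plasma cell markers ran the other way, at 1821 to 7466 against 57200 to 78240 in distal cells, and the 5 T cell markers overlapped (304 to 375 against 235 to 351). Their part in the changes of the members was not tested. Xist was above 1000 normalized counts in 2 of 2 proximal GS4T libraries and in 1 of 2 proximal GWTT libraries. In distal cells 2 of 2 GS4T and 2 of 2 GWTT libraries were above it. For GA3T cells it was 1 of 2 in each segment. The part of sex was not tested either.

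In GA3T cells, from mice with floxed Alk3 in place of floxed Smad4, no member was called by limma, where 0% (distal) and 0.358% (proximal) of genes were called. At an unadjusted p with the fold, Ccl28 passed in distal cells and Ccl8 and Ccl11 in proximal cells. DESeq2 called the same 3 while edgeR called none, without their shares over all genes beside these counts. That unadjusted rule passed 1197 of 15414 genes in distal and 1451 of 15346 in proximal cells. In proximal cells Ccl8 was 353 and 376 against 184 and 118.5 (1.30, [0.61, 1.99], adjusted p = 0.104) and Ccl11 was 6203 and 3672 against 11360 and 10430 (-1.19, [-1.88, -0.49], adjusted p = 0.12). Ccl2 was 1052 and 1045 against 759 and 529 (0.73, [0.21, 1.24], adjusted p = 0.151).

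Ccl9 was 131 and 326.5 against 71.8 and 101 (1.27, [-0.02, 2.56], adjusted p = 0.236). These 4 proximal differences had no overlap between groups, and none was called. With 2 libraries per group a lack of overlap is a weak criterion, and its share over all genes was not counted. Distal Ccl28 was 153 and 73.4 against 31.2 and 34.2 (1.67, [0.51, 2.83], adjusted p = 0.177), beside epithelial markers of 6683 to 14960 against 915 to 2756. The macrophage markers summed to 14520 to 25710 against 3345 to 5328 in proximal GA3T cells and to 13930 to 19330 against 11460 to 13460 in distal ones. Ccl7, Ccl9, Ccl11 and Ccl8 in distal GA3T cells overlapped with controls, with fold changes from -0.22 to 0.42. Between segments the GA3T fold changes called no member, nor any gene (0%), with 1 member, Ccl8, at an unadjusted p (proximal minus distal 1.52, [0.56, 2.48], adjusted p = 0.501) and 0 by edgeR and DESeq2. The unadjusted rule passed 487 of 15301 genes there.

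Ccr4 was low in all stromal libraries, with 5.87 to 45.7 normalized counts in controls and Alk3 or Smad4 knockouts at 3.54 to 46.8. Its fold changes ran from -1.22 to 0.69 with intervals of at least 3 log2 units in width, and in proximal GA3T cells both libraries (12.0 and 19.0) lay below both controls (45.7 and 24.8). Ccl25 was 50.8 to 112 in the 12 stromal libraries and its fold changes ran from -0.12 to 0.13 (adjusted p 0.784 to 0.956).

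GS4T and GA3T cells were also compared directly. Distal Ccl9 was higher in GS4T by 1.66 ([0.86, 2.46], adjusted p = 0.148) and Ccl8 was lower by 1.08 on the log2 scale ([-1.70, -0.46], adjusted p = 0.183), each without overlap, and Ccl2 differed by 1.19 ([-0.07, 2.45], adjusted p = 0.384). In proximal cells Ccl2 differed by 0.76 ([0.21, 1.31], adjusted p = 0.342). By limma no member was called, where 0.0655% (distal) and 0.0264% (proximal) of genes were. The unadjusted counts were 2 and 0, edgeR called 0 in both, and DESeq2 called Ccl8 and Ccl9 in distal cells and 0 in proximal cells. Over all genes the unadjusted rule passed 1045 of 15266 in distal and 638 of 15150 in proximal cells.

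**Figure D3:**
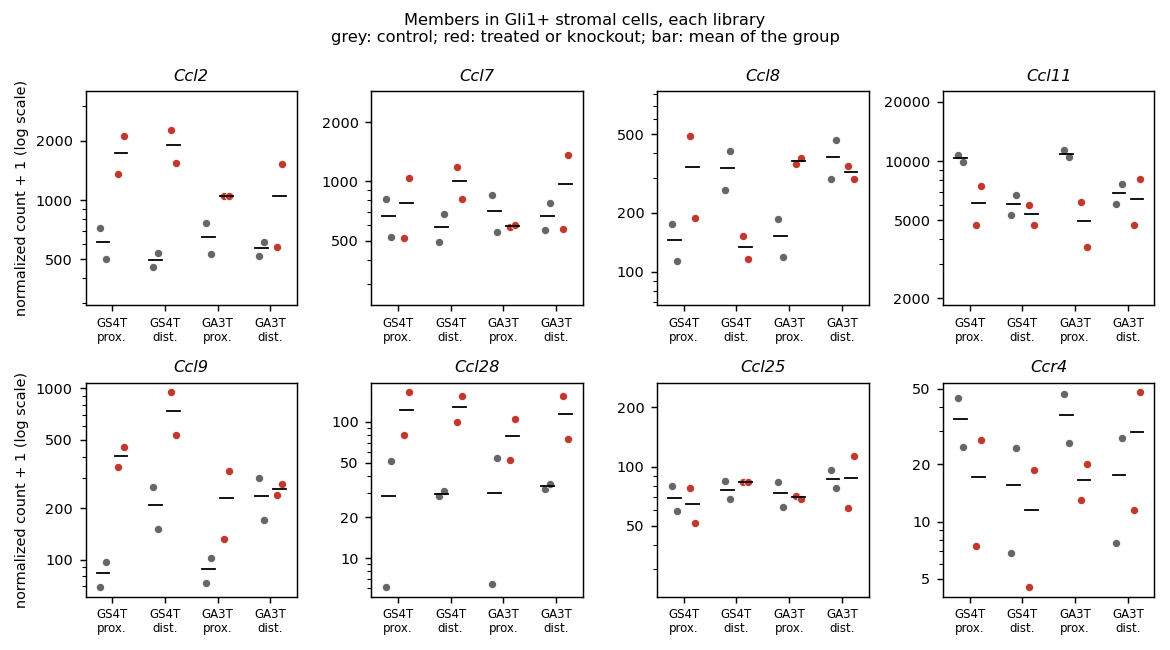
Normalized count plus 1 of 8 members in each Gli1+ stromal library on a log axis, GWTT controls in grey and GS4T or GA3T knockouts in red, with a bar at the group mean. Ccl2 and Ccl9 of GS4T lie above their controls in both segments, at 1360 to 2277 against 456 to 722 for Ccl2, and Ccl8 of GS4T lies above them in proximal and below them in distal cells.

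In goblet cells, whose own Smad4 and Alk3 are not the deleted alleles, no member was called by limma in GS4M2 cells, where 0% (distal) and 0.325% (proximal) of genes were called, or in GA3M2 cells, where 0% and 0.0899% were. Ccl28 was 1872 and 1980 in distal GS4M2 and 1668 and 1680 in distal GA3M2 libraries against 2640 and 1839 in controls, or 2526 and 1775 as scaled in the other table. In proximal cells it was 1064 and 1244 in GS4M2 and 1775 and 1473 in GA3M2 against 1445 and 814, or 1539 and 860. The 4 log2 fold changes ran from -0.34 to 0.49, with intervals between -0.84 and 1.22.

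Ccl9 of distal GS4M2 goblet cells was 568 and 442 against 1706 and 1126 (-1.47, SE 0.25, [-2.10, -0.83]), without overlap. The adjusted p was 0.37, and its unadjusted p of 0.00184 made it the 1 member past the unadjusted rule in the 4 goblet comparisons. That rule passed 353 of 13078 genes in distal GS4M2 cells. No member was called by edgeR, and DESeq2 called Ccl9 alone. In fits without 1 library, which leave 1 library in a group, the fold change ran from -1.76 to -1.17. In proximal GS4M2 cells Ccl9 was 2263 and 1813 against 1821 and 2293 (-0.01, [-0.40, 0.38]), and the segments differed by 1.45 ([0.67, 2.23], adjusted p = 0.564), with no member and 0% of genes called, 1 member at an unadjusted p, 0 by edgeR and 1 by DESeq2. Between these segments the unadjusted rule passed 307 of 12998 genes. In GA3M2 cells Ccl9 changed by -0.50 ([-1.34, 0.34]) and -0.19 ([-0.68, 0.30]) in distal and proximal cells, and between segments 0% of genes and no member were called, also at an unadjusted p, by edgeR and by DESeq2.

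The direct comparison of distal GS4M2 and GA3M2 cells gave Ccl9 -0.96 ([-1.62, -0.31], adjusted p = 0.136), without overlap and without a call, where 1.55% of genes were called. The proximal one called 0.0913% of genes and no member. No member passed the unadjusted rule in either, and edgeR called none, while DESeq2 called Ccl9 in the distal colon and none in the proximal.

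Ccl25 was 60.4 to 210 in all goblet libraries and changed by -0.73 to -0.04 (adjusted p 0.425 to 0.955). Ccl20 had 29.1 and 1.13 normalized counts in distal GWTM2 and 13.3 and 20.2 in GS4M2 cells, and 5.87 and 10.5 in GA3M2 cells, so that 1 control library alone spans the range. Ccl2 was 25.2 and 3.69 in proximal GA3M2 goblet cells against 0 and 0, beside 5 fibroblast markers (of 6, Lum without a row) that summed to 79.5 to 430 there against 4.57 to 7.31. The 7 of 9 macrophage markers with a row summed to 520 to 789 against 111 to 119 (1 called higher; C1qb, C1qc and Lyz2 at 0 in both controls), the 2 of 4 smooth muscle markers with a row to 19.1 to 232 against 0 to 1.83, and the 9 goblet markers to 196100 to 253100 against 564800 to 627800 (1 called lower). In distal GA3M2 cells the goblet markers summed to 252500 to 424100 against 613900 to 1108000. The 6 of 9 macrophage markers with a row summed to 531 to 622 against 76.5 to 128, and no goblet or macrophage marker was called there. The part of these markers in the Ccl2 values, or in those of the other members in GA3M2 cells, was not tested. In each segment 1 of the 2 GWTM2 libraries and 0 of the 4 knockout libraries had Xist above 1000 normalized counts, so that sex was not balanced between these groups and its part was not tested.

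**Figure D4:**
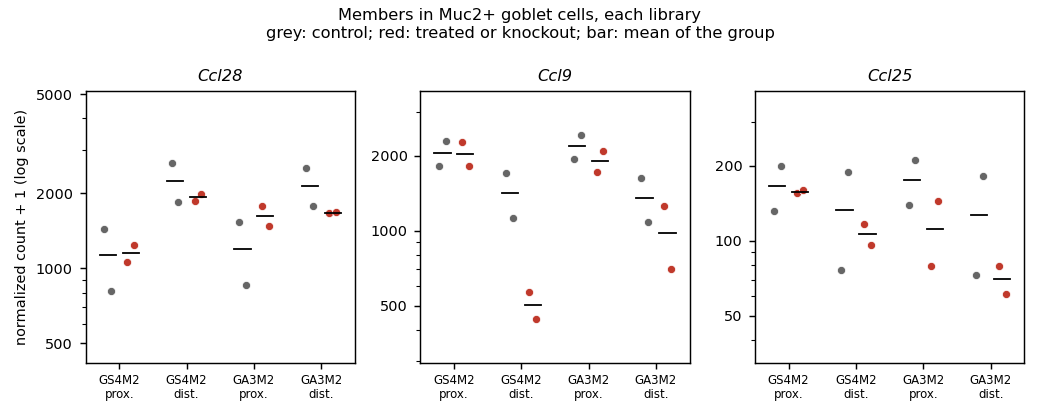
Normalized count plus 1 of Ccl28, Ccl9 and Ccl25 in each Muc2+ goblet library on a log axis, GWTM2 controls in grey and GS4M2 or GA3M2 libraries in red, with a bar at the group mean. Ccl9 of distal GS4M2 cells lies at 442 to 568, below its controls at 1126 and 1706, and Ccl28 and Ccl25 carry no call in any of the 4 comparisons.

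The receptors of these ligands that had a row in organoids were at low levels there, and a missing row gives no level. In control organoids Ccr9 was 0.0185 to 0.0344, Ccr10 0.265 to 0.974 and Ccr1 0.225 to 0.518 RPKM, and Ccr6, Ccr2 and Ccr3 had no row in goblet or organoid tables. In GWTT stromal cells Ccr10, the receptor of Ccl28 on plasma cells, was 5.49 to 15.4, Ccr1 was 0.907 to 2.57, Ccr2 1.06 to 2.44, Ccr6 0.257 to 0.360, Ccr9 0.191 to 0.379 and Ccr3 0.0378 and 0.0935. The Ccr4 ligand Ccl22 was 0.257 to 0.421 and Ccl17 0 to 0.232 in these cells.

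Among the other CC ligands, a list of 13 of which 6 were tested in distal GS4T cells, 3 were called, all higher. They were Ccl3 (92 and 106 against 557 and 425 in GS4T, 2.29) and Ccl4 (24.4 and 49.4 against 274 and 302, 3.01), both attractants made by myeloid cells, and Ccl6 (317 and 160 against 1497 and 1246, 2.60). In proximal GS4T cells 1 of 7 was called, Ccl6 (3.55). Their adjusted p-values lay between 0.00281 and 0.0269. Over all genes 7.88% were called higher in distal and 5.25% in proximal GS4T cells.

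Of 13 CC receptors and atypical receptors, 11 were tested in distal and 12 in proximal GS4T cells, and each segment had 2 called higher and 2 lower. Over all genes 7.88% were called higher and 6.08% lower in distal cells, and 5.25% and 4.36% in proximal cells. Ccr1, the receptor of Ccl9, rose in both (1.96 and 2.70), as did Ccrl2 (1.67 and 1.44), a receptor that binds without signalling. Ccr2, the receptor of Ccl2, fell by 1.55 on the log2 scale in distal cells, from 117 and 130 to 29.2 and 58.7, with an adjusted p of 0.0473 that passed the threshold narrowly. Ccr10 fell by 3.15 there, from 310.0 and 431 to 21.3 and 75.2, beside the lower B and plasma cell markers given above. Without 1 of some libraries Ccr2 and Ccr10 lost the call, as did all 5 genes called in the proximal colon.

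In proximal cells Ccr8 fell by 2.24, and Ackr4, a scavenger of Ccl25 and of other ligands, fell by 2.37, from 10400 and 6037 to 1280 and 1838. Neither list had a call in GA3T, goblet or organoid comparisons by limma. Between control cell types, Ccl6 was higher in goblet cells by 6.49, and Ccl27a, Ccr1, Ccr10, Ccrl2 and Ackr4 were lower by 1.69 to 7.56. Ccl5 and Ackr4 were higher in proximal than in distal GWTT cells, by 2.24 and 3.07.

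The genes whose fold changes were most like those of a member were found by the root mean square difference over the 4 comparisons of 1 cell type. For Ccl2 in stromal cells, among 13576 genes, they were Cfb, Tes and Hif1a at 0.077 to 0.101, with Cfb at 1.87 and 1.41 in distal and proximal GS4T cells. For Ccl7 they were Nol10, Rad18 and Eipr1 (0.038 to 0.076), for Ccl8 Gpr20, Pdlim3 and Col24a1 (0.230 to 0.247) and for Ccl11 Cyp27b1, Svip and Dedd2 (0.119 to 0.154). For Ccl20 in organoids no gene was close, and Rian, Lama4 and Meg3 at 0.868 to 1.19 were the nearest of 11621. For Ccl28 in goblet cells, where nothing was called for it, they were Rsu1, Mthfsl and Tnfaip3 (0.047 to 0.077). The comparisons of a cell type share control libraries.

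**Figure D5:**
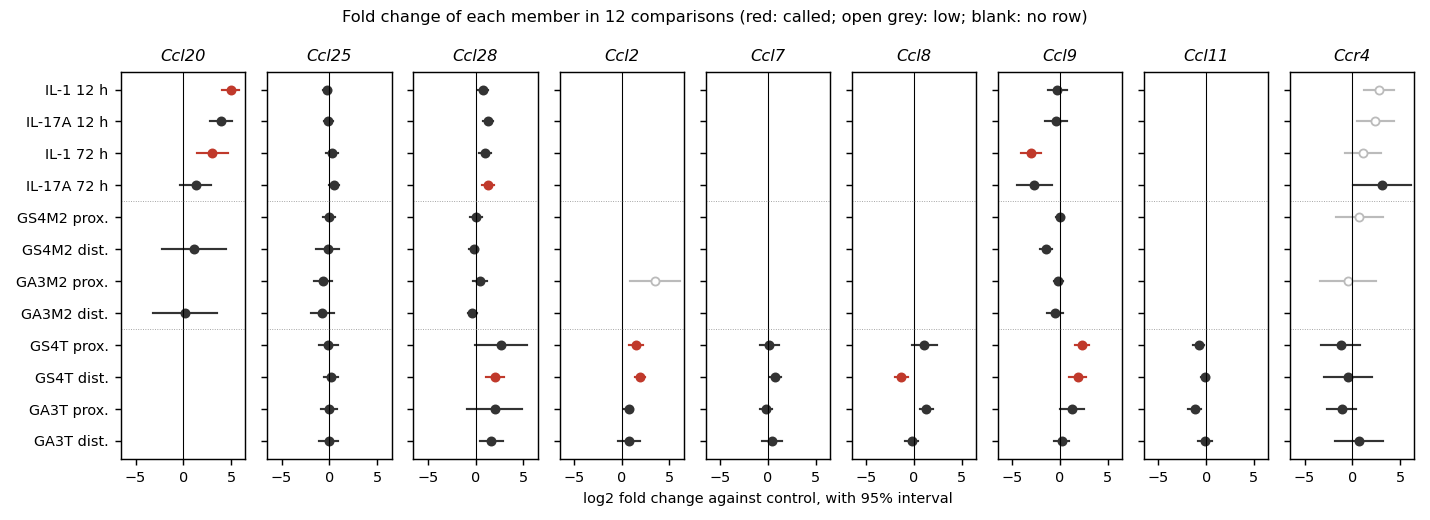
Log2 fold change against control of each member in the 12 comparisons, with the 95% interval as a line. Red marks called members, open grey points are low and a blank means no row. Ccl20 is called with IL-1, at 4.95 and 3.05, Ccl9 is lower with IL-1 at 72 h and higher in both GS4T comparisons, and Ccl25 stays within 1 log2 unit of 0 in all 12.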

How the data were processed

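The authors aligned reads to mm10 with STAR 2.5.3 and normalized them with DESeq2 1.28.1, and the counting program, annotation and strand setting are not given in the sources used here. The deposited signal values are normalized counts, 1 table per comparison, and whole reads were recovered from them for 100% of values within 0.1 of a whole number. Rows without a gene name held 20.9% to 28.2% of the reads of the 8 libraries, controls included, in the GS4M2 tables and were left out. Each table was fitted alone with limma 3.58.1 (trend, R 4.3.3) on log2(value + 1), for genes with a mean of at least 10, with Benjamini-Hochberg adjustment. Differences of fold changes between segments or times used the values of both tables as normalized, each table with its own controls. The 2 genotypes, the 2 cytokines, and control cell types and segments were compared on recovered reads, rescaled together by median of ratios. edgeR 4.0.16 and DESeq2 1.42.0 on recovered reads, other pseudocounts, filters and scalings, a replicate block and fits without each library were alternatives. Reads were compared between all samples, which found 2 control organoid libraries given under both times, and the tests between times enter these at both times, as labelled, with fits that count each once added after seeing the data. On the recovered reads edgeR called 0 to 2971 genes in the 12 comparisons with controls, and limma 0 to 2998. The fits were tested on simulated data. The members and lists were chosen with earlier results of these data known, and the named genes are the 9 members, list genes that were called, and the 3 genes most like a member. Between the cytokines, samples of the same replicate number deviated alike from their group means. Correlations were 0.592 to 0.862 at 12 h and 0.442 to 0.747 at 72 h for the 3 pairs. At 12 h the 2 numbers shared by a cytokine and its controls gave 0.619 to 0.637, and those of the GWTM2 segments gave 0.577. The reported fits did not use this pairing, and the labels do not say what a shared number means. Levels per kilobase used GENCODE M21 exons.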

Additional observations from a re-analysis of the deposited data

Results flagged for a closer look

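Ccl8 of GS4T stromal cells had opposite directions in the 2 segments: every proximal library lay above both controls and every distal library below them. The test of the difference gave 2.41 on the log2 scale with an adjusted p of 0.24 by limma, so it did not pass. Ccl9 in organoids differed between the times of IL-1 treatment by -2.80 (adjusted p = 0.0142 by limma), with the 72 h libraries below all their controls and the 12 h libraries overlapping theirs. This test counts 2 control libraries at both times. The call was lost with near-identical libraries averaged (-2.73, adjusted p = 0.0868). With the shared controls kept at 12 h only or at 72 h only, which leaves 1 control at the other time, the difference was -2.71 and -3.56. With the 4 distinct controls as 1 group the fit gave -2.44 (adjusted p = 0.00336). That fit sets 72 h against 12 h IL-1 libraries with no control for time in culture.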

How the results depend on the processing

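Of 181 recalculated counts of called members (27 comparisons), 157 stayed within 1.5 times the reported count, as did 132 of 156 fits without 1 library, and of 701 alternatives for 78 named fold changes 664 kept direction and side of the threshold, as did 277 of 362 without 1 library. Most reported counts were 0, and a 0 that stayed 0 is in these totals. In organoids, where members were called, the count moved in 5 of 6 fits without 1 library with IL-1 at 12 h. It moved in 6 of 6 with IL-17A at 72 h. With IL-1 at 72 h it ran from 2 to 3, within 1.5 times the reported 2, but the members called changed. Ccl28 became called in 4 of those 6 fits, and Ccl20 lost its call in 1. With an unadjusted p or with DESeq2 the count became 1 in GA3T distal and GS4M2 distal cells, 2 in GA3T proximal cells and with IL-17A at 12 h, and 3 with IL-17A at 72 h. DESeq2 gave 1 between segments for GS4M2 and GS4T, between times for IL-17A and for GS4M2 against GA3M2 in distal cells. It gave 2 for GS4T against GA3T in distal cells and between GWTT segments. In the same order, the counts at an unadjusted p were 1, 1, 2, 0, 2 and 2. Over all genes the unadjusted rule passed 2688 of 13073 with IL-17A at 72 h. A pseudocount of 10 gave 2 members there. The replicate block gave 2 with IL-17A at 12 h, 0 with IL-17A at 72 h and 0 between IL-1 times. Whether a shared number means a shared source is not given in the labels, and between the cytokines the block left the count at 0. Averaging near-identical libraries, chosen after seeing the data, gave 0 with IL-1 at 12 h, IL-17A at 72 h and between IL-1 times, and 3 with IL-1 at 72 h, where Ccl28 was called too. Counting the 2 shared control libraries once was also chosen after seeing the data. Kept at 12 h only or at 72 h only, they leave 1 control at the other time, so no count is given. With the distinct controls as 1 group the count between IL-1 times was 1, in a fit with no control for time in culture. Without 1 library the counts ran from 0 to 1 in GA3T distal, GA3T proximal, GS4M2 distal, IL-1 at 12 h, IL-17A times and GS4M2 against GA3M2 distal, 1 to 2 in GS4T distal, 0 to 3 in GS4T proximal, 0 to 2 with IL-17A at 72 h and 1 to 2 between IL-1 times.

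Ccl20 of distal GA3M2 cells reversed to -0.18 with a pseudocount of 10, -0.83 with edgeR and -0.82 with DESeq2, and ran from -1.70 to 2.09 without 1 library. Without 1 library direction also changed for Ccl25 (-0.48 to 0.38), Ccl7 (-0.20 to 1.04), Ccl8 (-0.56 to 0.11), Ccl9 (-0.23 to 0.59), Ccl11 (-0.53 to 0.25) and Ccr4 (-0.33 to 1.72) in GA3T distal, Ccl25 (-0.26 to 0.16) and Ccl7 (-0.52 to 0.12) in GA3T proximal, Ccl20 (-0.79 to 3.03), Ccl25 (-0.83 to 0.48) and Ccl28 (-0.46 to 0.066) in GS4M2 distal, and Ccl25 (-0.34 to 0.26), Ccl28 (-0.33 to 0.50) and Ccl9 (-0.18 to 0.15) in GS4M2 proximal cells. It changed for Ccl25 (-0.014 to 0.28), Ccl11 (-0.33 to 0.0059) and Ccr4 (-1.51 to 0.53) in GS4T distal, Ccl25 (-0.41 to 0.17) and Ccl7 (-0.34 to 0.67) in GS4T proximal, and Ccl9 with IL-1 (-0.65 to 0.083) and IL-17A (-0.79 to 0.033) at 12 h. None of these genes was called in those comparisons by limma. The cause was not tested.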
